A study of Homo sapiens with 36 samples.

Results

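The regions described here are stretches of chromatin away from gene starts that carried the active mark H3K27ac in both A549, a human lung adenocarcinoma cell line, and BEAS-2B (B2B), an immortalised line of human bronchial epithelium that is not cancerous, and that also carried Med1, a subunit of the Mediator coactivator, in at least one of the lines. They were chosen by measured values, namely the H3K27ac and Med1 peaks of chromatin immunoprecipitation sequencing (ChIP-seq). H3K27ac peaks on chromosomes 1 to 12 that lay more than 1 kb from every annotated transcript start were merged over the lines, and merged regions with a peak from each line and a Med1 peak from either were kept. This gave 1822 members out of 20858 distal acetylated regions, or 8.74%. The study profiled untreated cultures of both lines with antibodies against H3K27ac, H3K4me3, RNA polymerase II (pol II), Med1, JunB, Jun and JunD, and the B2B lists of CTCF and the cohesin subunit Rad21 were used as well. Each line and target had 2 biological replicates, which the authors merged before they called peaks, so each value below rests on 1 peak list and no error between replicates could be computed. Each condition is a single cell line in culture, so the line and its cancerous or non-cancerous origin cannot be told apart.

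H3K27ac is laid down on the nucleosomes that flank active promoters and enhancers, and Mediator links transcription factors bound at enhancers to pol II. H3K4me3 is typical of promoters and CTCF with cohesin of loop anchors and insulators. JunB, Jun and JunD are leucine zipper proteins that pair with each other or with Fos proteins to form the transcription factor AP-1, which binds the palindrome TGAGTCA and is active in growth signalling and stress. Distal elements used by both lines are the setting in which the AP-1 occupancy of a cancer line and a non-cancerous line can be read at the same genomic positions. Differences in sequence or copy number between the lines were not measured here.

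The sequences of some members show the types of site that the results turn on. Each is a run of 101 bases of hg38 on the plus strand, centred on a peak summit, and each set holds high-ranking members of its class outside exons, not all of them. The first 4 had JunB, Jun and JunD in both lines and are centred on the A549 Jun summit, with matches to TGAGTCA on either strand in capitals.
LDLRAD3 member, chr11:36149842-36149942: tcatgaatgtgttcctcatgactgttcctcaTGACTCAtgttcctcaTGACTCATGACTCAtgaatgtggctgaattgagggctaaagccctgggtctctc
NRP1 member, chr10:33134174-33134274: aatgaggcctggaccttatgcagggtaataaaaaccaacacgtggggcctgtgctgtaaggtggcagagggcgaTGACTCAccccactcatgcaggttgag
PI4KB member, chr1:151311689-151311789: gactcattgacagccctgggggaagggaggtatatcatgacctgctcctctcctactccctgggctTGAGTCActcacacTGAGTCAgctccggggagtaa
PRSS23 member, chr11:86740755-86740855: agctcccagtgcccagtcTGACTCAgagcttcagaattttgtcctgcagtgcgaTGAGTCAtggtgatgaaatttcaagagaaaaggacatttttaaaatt
All 4 of these windows held the motif, with 3 copies beside LDLRAD3, 2 of them directly abutting, and 2 copies each beside PI4KB and PRSS23.

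The next 3 had all 3 proteins in A549 and none in B2B, and are centred and marked in the same way.
INAVA member, chr1:200896859-200896959: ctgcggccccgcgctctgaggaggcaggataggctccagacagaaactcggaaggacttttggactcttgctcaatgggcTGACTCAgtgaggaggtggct
CUX1 member, chr7:101883006-101883106: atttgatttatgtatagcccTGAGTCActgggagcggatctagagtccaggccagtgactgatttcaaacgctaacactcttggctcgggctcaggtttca
RD3 member, chr1:211515417-211515517: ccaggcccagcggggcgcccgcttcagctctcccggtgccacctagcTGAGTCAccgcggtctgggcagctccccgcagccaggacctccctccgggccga
Each held 1 match, at the summit itself beside RD3 and 33 bp and 27 bp away from it beside INAVA and CUX1. For the 1 member with the opposite arrangement, the window centred on its B2B Jun summit held none. That window lay outside the member's B2B JunB and JunD peaks, at 6444202 to 6444413 and 6444237 to 6444350, so it does not show the site that the proteins shared.
DAGLB member, chr7:6443785-6443885: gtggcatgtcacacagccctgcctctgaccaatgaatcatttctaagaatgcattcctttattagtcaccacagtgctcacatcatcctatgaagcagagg

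Strongly acetylated members without a Jun-family peak in either line are represented by 3, shown around the strongest Med1 summit.
CDKN2C member, chr1:50977679-50977779: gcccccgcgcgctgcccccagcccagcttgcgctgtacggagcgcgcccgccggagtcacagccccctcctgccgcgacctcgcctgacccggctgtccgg
ITPKB member, chr1:226703501-226703601: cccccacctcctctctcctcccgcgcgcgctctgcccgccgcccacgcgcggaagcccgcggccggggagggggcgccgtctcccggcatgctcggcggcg
PZP member, chr12:9283864-9283964: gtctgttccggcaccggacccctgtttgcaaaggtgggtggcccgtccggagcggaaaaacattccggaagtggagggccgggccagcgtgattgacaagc
None held the motif, and G and C made up 79.2% of the CDKN2C window, 83.2% of the ITPKB window and 63.4% of the PZP window. The first 4 windows had 41.6% to 56.4%, and the INAVA, CUX1 and RD3 windows 59.4%, 48.5% and 75.2%. Members with strong CTCF and Rad21 peaks are represented by 2 that lie outside exons, centred on the CTCF summit, with the CTCF core motif in capitals.
GSN member, chr9:121320218-121320318: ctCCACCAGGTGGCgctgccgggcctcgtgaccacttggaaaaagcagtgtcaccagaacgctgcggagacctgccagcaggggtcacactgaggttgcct
DNAJB12 member, chr10:72364398-72364498: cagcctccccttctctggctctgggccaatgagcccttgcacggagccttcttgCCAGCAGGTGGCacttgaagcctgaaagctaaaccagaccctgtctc
The core lay 10 bp from the CTCF summit beside DNAJB12 and 42 bp from it beside GSN, where it sat near the edge of the window.

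Of the peak lists, some stop before the last chromosome: the A549 H3K27ac list ended on chromosome 13, both Med1 lists on chromosome 15 and the A549 pol II list on chromosome 20, which is why chromosomes 1 to 12 were used. On those chromosomes the H3K27ac lists held 28190 peaks in A549 and 24654 in B2B. The labelled cell type was checked through H3K4me3 within 1 kb of the starts of marker genes: 5 of 6 epithelial markers had it in each line, and none of 6 leukocyte markers in A549 and 1 in B2B did. Both lines also had it at 6 of 7 mesenchymal markers, and 2 of 4 basal airway markers had it in A549 against none in B2B.

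Acetylation and Med1 were used to choose the members and are given as description only. Peak height is given as fold enrichment, which the authors deposited and which divides the reads piled up at a summit by the background that the peak caller estimated nearby. In A549 the strongest H3K27ac peak of a member had a median fold enrichment of 19.0 (quartiles 9.65 and 36.6), and in B2B of 6.70 (quartiles 4.74 and 9.69). The medians of the pileup itself were nearly equal, 64.0 reads in A549 and 65.0 in B2B, while the median local background was 2.34 reads in A549 and 7.83 in B2B. Fold enrichments are therefore not comparable between the lines, and where lines are set side by side the pileup in reads or the percentile of a peak within its own list is given. The percentile ranks fold enrichment, so it too moves with the local background. Pileups depend on sequencing depth, which was not available for the lists, and its part in differences between the lines was not tested. Members stood at the median percentile of 62.8 in A549 and 65.4 in B2B, where regions acetylated in both lines without Med1 had 37.5 and 42.5, regions with Med1 acetylated in A549 only 49.7 and those acetylated in B2B only 67.3. Across the 1822 members the H3K27ac percentiles of both lines were nearly unrelated (Spearman rho = -0.071), whereas their pileups were related (rho = 0.46), both being correlations over regions that share libraries. A member with many H3K27ac reads in A549 thus tended to have many in B2B.

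Med1 was present in both lines at 751 members, in A549 alone at 337 and in B2B alone at 734. Med1 overlapped 49.2% of the 3701 distal regions acetylated in both lines and 17.5% of the 17157 acetylated in one line. The weakest members stood close to the limits of the lists: the lowest −log10 q of a member's strongest peak was 2.27 for H3K27ac in A549, 2.52 in B2B, 2.41 for Med1 in A549 and 2.05 in B2B, where the lists themselves ended at 2.10, 2.03, 2.02 and 2.01. The member nearest to a gene start lay 1004 bp from it, and the nearest region left out for its distance lay 1000 bp from one.

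Members were longer than other regions, with a median of 748 bp (quartiles 460 and 1193) against 370 bp for distal regions with Med1 that were acetylated in A549 only and 376 bp for those acetylated in B2B only. Merging peaks of 2 lists adds to the length. The midpoint lay in an intron for 56.8% of members (95% Wilson interval, here CI, 54.5 to 59.1), between genes for 36.7% and in an exon for 6.48%. Of all distal acetylated regions 29.9% lay between genes, and of regions acetylated in both lines without Med1 21.4%, but of regions with Med1 acetylated in A549 only 38.4% did and of those acetylated in B2B only 31.3%. The median distance to the nearest start of any transcript was 7174 bp and to the nearest start of a protein-coding gene 13650 bp. All intervals here cover counting error over regions only, and neighbouring members can share a peak: the 1019 members with Jun in B2B had 958 distinct strongest peaks.

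The label distal describes position and not chromatin. H3K4me3 overlapped 909 members in A549, or 49.9% (CI 47.6 to 52.2), against 21.6% of all distal acetylated regions, and 386 members in B2B, or 21.2% (CI 19.4 to 23.1), against 6.52%. Set beside distal regions with Med1 acetylated in the given line only, the share did not differ beyond its interval in A549 (47.6% there, 2.28 points, CI -1.0 to 5.56) and was higher at members in B2B (13% there, 8.15 points, CI 5.47 to 10.7). In all, 929 members carried H3K4me3 in at least one line and 893 in neither. The share fell with distance: in A549 it was 57.7% for the 241 members within 2 kb of a start and 47.1% for the 325 beyond 20 kb, a difference of -10.6 points (95% Newcombe interval -18.7 to -2.28), and in B2B it went from 33.2% to 20.3% (difference -12.9 points, CI -20.2 to -5.54). JunB and Jun shares moved the other way, from 44.4% to 58.5% for A549 Jun (14.1 points, CI 5.74 to 22.1), from 45.2% to 62.8% for B2B Jun (17.5 points, CI 9.25 to 25.5), from 44% to 57.5% for A549 JunB (13.6 points, CI 5.23 to 21.6) and from 19.5% to 33.2% for B2B JunB (13.7 points, CI 6.39 to 20.7). For JunD the difference was 6.75 points in B2B (CI 0.855 to 12.3) and 6.44 points in A549, where the interval held 0 (CI -0.705 to 13.3). The directions of change with distance were not particular to members. Over all distal acetylated regions, members included, A549 Jun went from 11.8% within 2 kb to 14.5% beyond 20 kb. B2B Jun went from 12.5% to 19.5%, B2B JunB from 3.69% to 6.51% and B2B H3K4me3 from 15.8% to 4.68%. A549 JunB and JunD of both lines also rose there, and A549 H3K4me3 fell. Whether the changes were larger at members was not tested.

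The Jun family was compared between the lines on the same members, with intervals paired over regions. JunB was found at more members in A549 than in B2B, JunD likewise, and Jun at similar numbers. JunB overlapped 958 members in A549, or 52.6% (CI 50.3 to 54.9), where 13.6% of all distal acetylated regions, members included, did. In B2B it overlapped 461, or 25.3% (CI 23.4 to 27.3), against 5.01%. The paired difference was 27.3 points (95% CI 25.1 to 29.4): 521 members had JunB in A549 alone, 24 in B2B alone and 437 in both. The B2B JunB list is much shorter, 6318 peaks against 19926, and the difference was 9.77 points (CI 7.83 to 11.7) with lists of equal length and 18.1 points where the summit had to lie inside the region.

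Jun overlapped 982 members in A549, or 53.9% (CI 51.6 to 56.2), against 14.0% of all distal acetylated regions, and 1019 in B2B, or 55.9% (CI 53.6 to 58.2), against 16.9%. The difference of -2.03 points had an interval that included 0 (CI -4.16 to 0.102) and took the other sign, 1.04 points, with lists of equal length, yet 178 members had Jun in A549 alone and 215 in B2B alone. JunD was the rarest, at 420 members or 23.1% in A549 (CI 21.2 to 25, all distal regions 4.06%) and 236 or 13% in B2B (CI 11.5 to 14.6, all distal regions 2.24%), with a difference of 10.1 points (CI 8.14 to 12.1). The median local background at members was higher in B2B for all 3 proteins, with JunB at 5.97 reads against 2.77, Jun at 3.69 against 1.66 and JunD at 4.49 against 2.94. Its part in the differences was not tested.

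**Figure D1:**
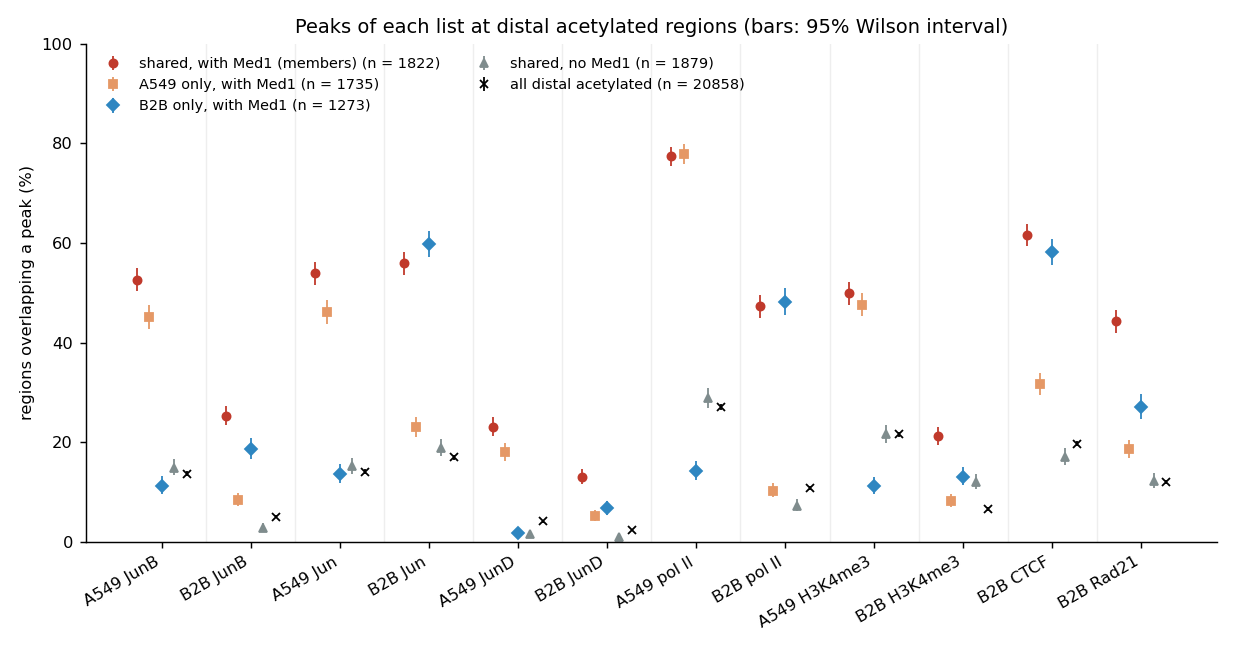
Percentage of regions that overlap a peak of each list, with 95% Wilson intervals, for the 1822 members and for 4 comparison sets of distal acetylated regions. Members stood above all distal acetylated regions in every list, and their JunB share was 52.6% in A549 and 25.3% in B2B.

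The similar total for Jun hid opposite differences in 2 kinds of member. At the 893 members without H3K4me3 in either line, Jun was present at 54.4% in A549 and 68.1% in B2B, a difference of -13.7 points (CI -16.6 to -10.7). At the 929 members with H3K4me3 it was present at 53.4% and 44.2%, a difference of 9.15 points (CI 6.26 to 12). The change between those differences was 22.8 points (CI 18.6 to 26.9). JunD did not change sign, but its difference between the lines was also larger where H3K4me3 was present. It was 18.4 points there and 1.46 points (CI -1.13 to 4.05) where H3K4me3 was absent. JunB was higher in A549 in both kinds, by 30.1 and 24.3 points. This split was chosen after seeing the data and rests mostly on the A549 call. Of the 929 members with H3K4me3, 97.8% had it in A549 and 41.6% in B2B, 543 of them in A549 alone and 20 in B2B alone. The part of that imbalance in the Jun differences was not tested.

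The Jun proteins also followed Med1, one of the marks that chose the members, so the Med1 classes are described together with the line in which Med1 was called. Where Med1 was present in A549 only, Jun overlapped 59.9% of members in A549 and 45.7% in B2B. Where Med1 was present in B2B only, the shares were 34.3% and 54.8%. JunB kept its direction even there, at 33.4% in A549 and 19.9% in B2B (13.5 points, CI 10.5 to 16.4), while JunD turned, at 3.41% and 7.63% (-4.22 points, CI -6.38 to -2.20). Members with Med1 in both lines had the highest JunB shares, 68.8% in A549 and 35.2% in B2B.

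Members were then set against distal regions with Med1 acetylated in one line only, 1735 in A549 and 1273 in B2B. In A549, JunB was present at 52.6% of members and 45.1% of A549-only regions (7.45 points, CI 4.16 to 10.7), Jun at 53.9% and 46.2% (7.73 points, CI 4.44 to 11), and JunD at 23.1% and 18.0% (5.07 points, CI 2.41 to 7.71). These differences were small and did not hold when A549-only regions were required to have Med1 in A549, where JunB differed by 1.79 points, Jun by 1.58 and JunD by 1.93, with intervals that included 0. In B2B, JunB was present at 25.3% of members and 18.6% of B2B-only regions (6.68 points, CI 3.73 to 9.58) and JunD at 13% and 6.68% (6.28 points, CI 4.18 to 8.32), but in windows of 1 kb around the midpoints the differences were -0.602 and 1.15 points, with intervals that included 0. Jun in B2B was less frequent at members than at B2B-only regions, 55.9% against 59.8% (-3.85 points, CI -7.36 to -0.314), and in 1 kb windows the difference grew to -11.5 points. Against regions acetylated in both lines without Med1 the contrast was larger, with Jun at 15.1% of those in A549 and 18.8% in B2B, although Med1 chose these sets.

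The 3 proteins occurred in a few frequent combinations. Of the members, 856 had a Jun-family peak in both lines, 236 in A549 only, 163 in B2B only and 567, or 31.1%, in neither. A Jun-family peak was present at 59.9% of members in A549 and 55.9% in B2B, where all distal acetylated regions had 16.8% and 16.9%. Combinations were counted at members only, and the B2B JunB list was the shorter, 6318 peaks against 19926. In A549 the most frequent states with a peak were JunB with Jun, at 460 members, and all 3 proteins, at 398. In B2B the most frequent was Jun on its own, at 547 members, followed by JunB with Jun at 236 and all 3 at 225. No member had JunB or JunD in B2B without Jun, whereas 95 had JunB alone in A549. Across the lines, the most frequent combination with a peak was JunB and Jun in A549 with Jun alone in B2B, at 198 members, ahead of all 3 proteins in both lines at 150 and Jun in B2B with none in A549 at 148. There were 46 members with all 3 in A549 and none in B2B, and 1 with the reverse.

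**Figure D2:**
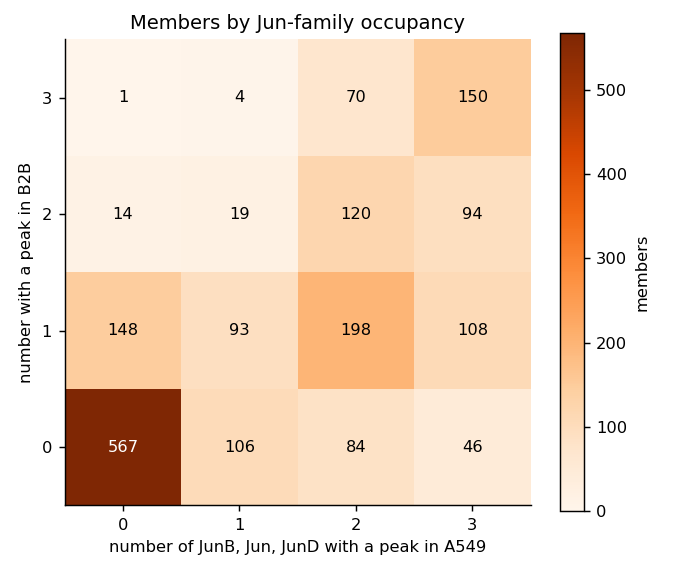
Number of members by how many of JunB, Jun and JunD had a peak in A549 (horizontal axis) and in B2B (vertical axis). The corners hold 567 members with none, 150 with all 3 in both lines, 46 with all 3 in A549 only and 1 with all 3 in B2B only.

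Of the 150 members with all 3 proteins in both lines, those whose 6 peaks all reached the highest percentiles were singled out, and 9 are described. The first lay in an intron of LDLRAD3, which encodes a membrane protein with LDL receptor class A domains, at chr11:36149451-36150760. There JunB had a pileup of 200 reads in A549 and 143 in B2B, Jun of 184 and 222 and JunD of 83 and 94, and each of these peaks was at a percentile of 99.7 or more in its list. A region between genes 50804 bp from NRP1, the neuropilin co-receptor of VEGF and semaphorins, had 178 and 62 reads of JunB, 192 and 123 of Jun and 78 and 42 of JunD. The H3K27ac peak of the NRP1 member stood at percentiles 60.7 in A549 and 76.4 in B2B.

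The PRSS23 member, named for a serine protease gene 49703 bp away, had 167 reads of Jun in A549 and 164 in B2B, with H3K27ac at percentiles 70.2 and 99.3. High Jun peaks were also found at members with low acetylation. The member in an intron of PI4KB, a phosphatidylinositol kinase gene, had 191 and 170 reads of Jun with H3K27ac at percentiles 9.74 and 29.3, and the member nearest to the homeobox gene DLX2 had 193 and 205 with H3K27ac at percentiles 25.2 and 40.5. Over the 9 members the Jun pileup ranged from 153 to 199 reads in A549 and from 121 to 222 in B2B, and the remaining ones lay nearest to ZSWIM6, SSUH2, NGEF and ZNF251.

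The 5 members chosen for having all 3 proteins called in A549 and none in B2B lay nearest to INAVA, ZNF706, CUX1, RD3 and IL6R. The INAVA member, in an intron of that innate immunity regulator at chr1:200896618-200897646, had JunB at a fold enrichment of 36.7, Jun at 42.5 and JunD at 12.5 in A549. Its H3K27ac peak had 71 reads in A549 and 35 in B2B, at percentiles 66.1 and 0.434. The local H3K27ac background in B2B was 16.6 reads there, 31.3 at the ZNF706 member and 43.8 at the RD3 member, against 2.18, 3.02 and 3.36 in A549, and its part in the B2B percentiles was not tested. At CUX1 and IL6R it was 2.87 and 6.91 reads in B2B and 3.09 and 5.17 in A549. The member in an intron of CUX1, a homeobox transcription factor gene, had JunB at 20.6, Jun at 51.4 and JunD at 8.78 in A549, with H3K27ac at percentiles 56.7 and 35, and that in IL6R, the interleukin 6 receptor gene, had 28.6, 39.6 and 7.75 with H3K27ac at percentiles 66.9 and 33.5. Of the 5, only the RD3 member had Med1 in B2B and none had pol II there, while all had pol II in A549, at fold enrichments from 29.9 to 44.2. The single reverse case, in an intron of the lipase gene DAGLB, had JunB at 5.14, Jun at 25.4 and JunD at 3.30 in B2B, and pol II at 9.67 in B2B with none in A549.

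Members with no Jun-family peak in either line were represented by the 5 with the highest acetylation in both. They lay nearest to CDKN2C, which encodes a cyclin-dependent kinase inhibitor, ITPKB, an inositol trisphosphate kinase gene, PZP, the zinc finger gene HIVEP2 and ZNF786. All 5 had H3K4me3 in both lines although they lay more than 1 kb from any annotated start, with pileups from 110 to 172 reads in A549 and from 112 to 137 in B2B. The local H3K4me3 background of these peaks was 2.43 to 4.29 reads in A549 and 29.6 to 50.1 in B2B. All 5 had Med1 and pol II in both lines, with pol II pileups between 123 and 229 reads in A549 and between 67 and 204 in B2B. The CDKN2C member, for example, had 313 reads of H3K27ac in A549 and 343 in B2B and 19 and 75 of Med1.

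**Figure D3:**
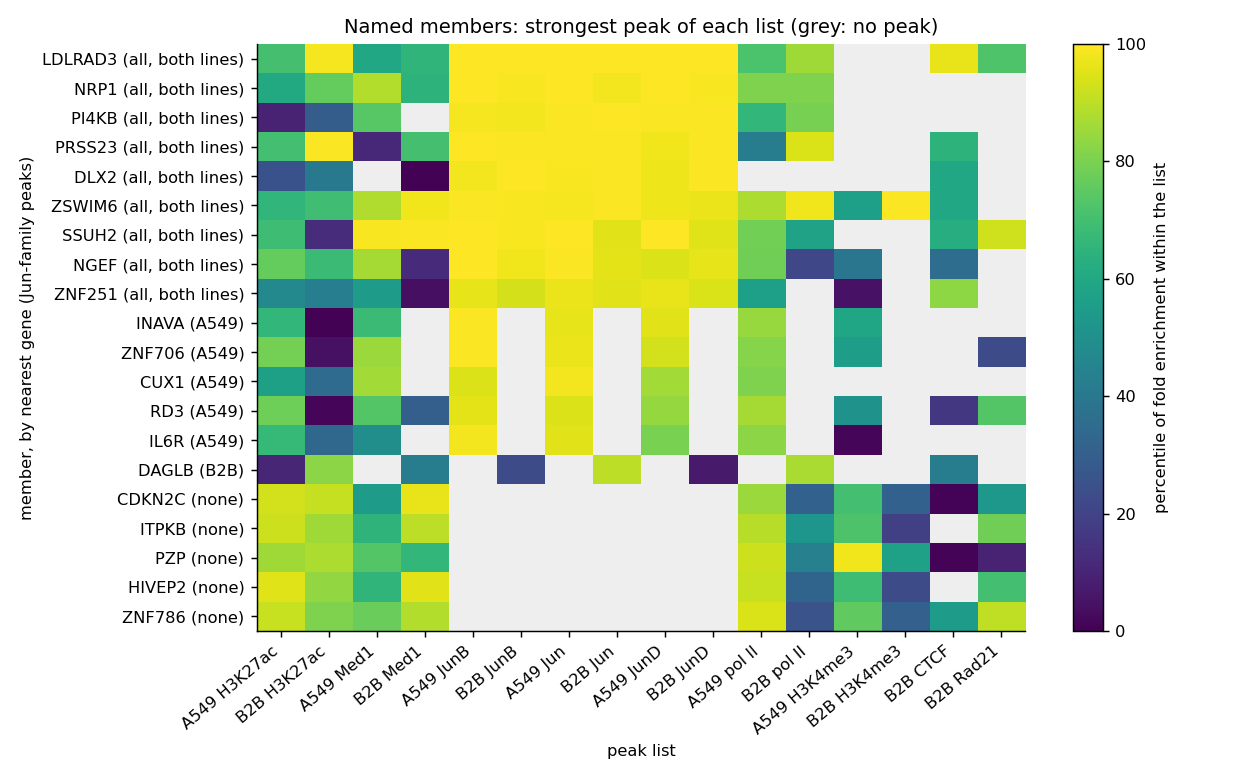
Strongest peak of each of 16 lists at 20 named members, as the percentile of its fold enrichment within the list, with members labelled by the nearest protein-coding gene and grey where no peak overlapped. The 9 members with all 3 Jun proteins in both lines were chosen for their percentiles in the 6 Jun lists and had H3K27ac percentiles from 9.74 to 76.3 in A549 and 12.5 to 99.3 in B2B, and the 5 members with none carried H3K4me3 in both lines.

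The AP-1 motif was counted within 100 bp of the strongest Med1 summit of each member, a feature the choice of members did not use. It was present at 425 members, or 23.3% (CI 21.4 to 25.3), compared with 3.76% (CI 3.19 to 4.43) of windows of the same length 2 kb to either side and 19.7% of all distal acetylated regions with Med1. Distal regions with Med1 acetylated in one line only held it at 17.5%, 5.84 points fewer (CI 3.49 to 8.23). At members with the motif, Jun-family peaks were frequent in both lines: JunB was present at 90.1% in A549 and 57.4% in B2B, against 41.2% and 15.5% of the 1397 members without it, and Jun at 86.1% and 87.5% against 44.1% and 46.3%. The motif tracked how many proteins were called. It was present at 3.17% of the 567 members without a Jun-family peak (CI 2.02 to 4.96), 14.8% of those with peaks in A549 alone, 11% in B2B alone, and 68.7% of the 150 with all 3 proteins in both lines (CI 60.9 to 75.5).

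Other motifs separated the classes of members as well. GGGCGGG, the site of SP and KLF zinc finger proteins, was present at 15.8% of members against 11.3% of all distal regions with Med1, and it was found at 33.9% of the 236 members with Jun-family peaks in A549 alone but at 6.75% of the 163 with peaks in B2B alone (27.1 points, CI 19.6 to 34.1). CATTCCA, the site of the TEAD factors that partner YAP, ran in the opposite direction, at 3.39% and 11% (-7.65 points, CI -13.6 to -2.60), where all members had 5.27% and all distal regions with Med1 5.86%. CCGGAAG, an ETS site, was at 6.36% and 1.23% (5.13 points, CI 1.14 to 9.09), with 3.35% of all members and 2.4% of all distal regions with Med1. The counts were small, 15 and 2 members for CCGGAAG and 8 and 18 for CATTCCA. These motifs also varied in the other classes. At members with all 3 proteins in both lines, GGGCGGG was at 5.33%, CATTCCA at 10.0% and CCGGAAG at 1.33%. With no Jun-family peak they were at 20.8%, 3.35% and 4.59%. Base composition moved with these classes. The median share of G and C around the Med1 summit was 63.7% for members with Jun-family peaks in A549 alone, 61.7% with none, 56.2% in B2B alone and 54.7% with all 3 in both lines, and its part in the motif counts was not tested.

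**Figure D4:**
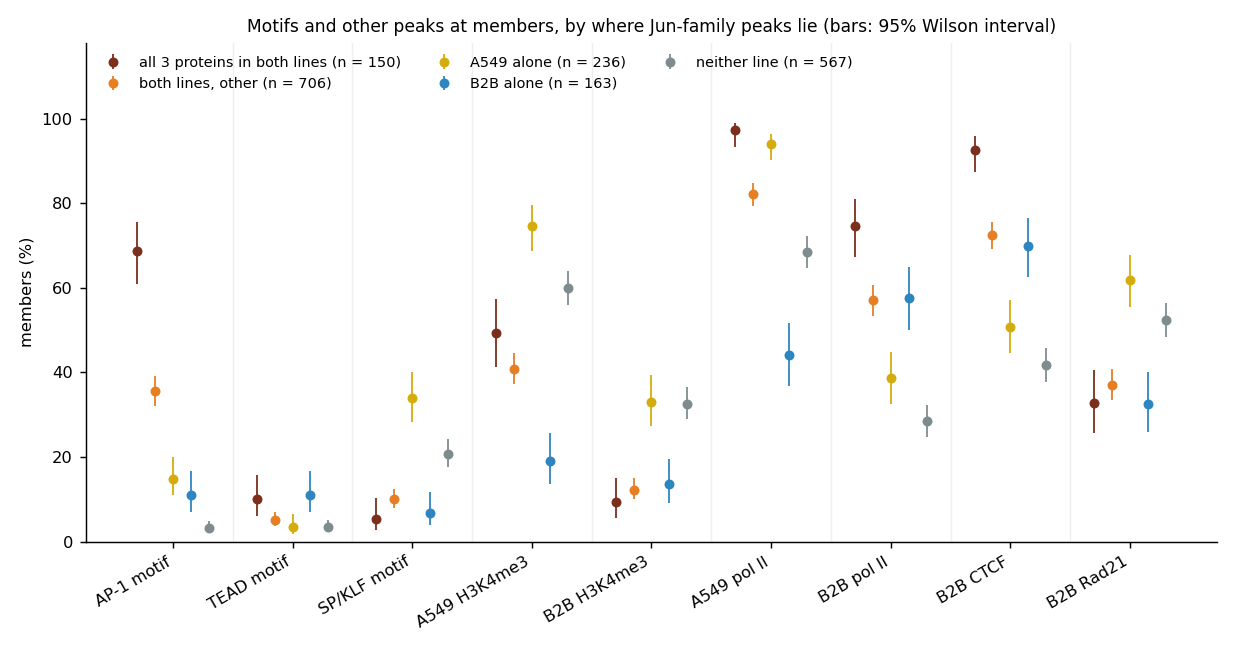
Percentage of members, with 95% Wilson intervals, that hold a motif within 100 bp of the Med1 summit or overlap a peak, in 5 classes set by where Jun-family peaks lie. The AP-1 motif was at 68.7% of members with all 3 proteins in both lines and 3.17% of those with none, and A549 H3K4me3 was at 74.6% of members with Jun-family peaks in A549 alone and 19.0% of those in B2B alone.

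Members with Jun-family peaks called in A549 alone often had H3K4me3, a mark typical of promoters. A549 H3K4me3 was present at 74.6% of them and at 19.0% of those with peaks in B2B alone (55.6 points, CI 46.6 to 62.9), and B2B H3K4me3 at 33.1% and 13.5% (19.6 points, CI 11.2 to 27.2). The classes rest on peak calls, and a missing call in B2B does not show that a protein was absent. At members with no Jun-family peak called in B2B, the median local H3K27ac background in B2B was 13.4 reads, against 4.61 with all 3 called. The part of background in the classes was not tested. Members without a Jun-family peak had H3K4me3 at 60% in A549 and 32.6% in B2B, and those with all 3 proteins in both lines at 49.3% and 9.33%. Pol II overlapped 1410 members in A549, or 77.4% (CI 75.4 to 79.2, all distal regions 27%), and 861 in B2B, or 47.3% (CI 45.0 to 49.6, all distal regions 10.7%). The paired difference was 30.1 points (CI 27.4 to 32.8) for pol II and 28.7 points (CI 26.5 to 30.9) for H3K4me3. The median local background at members was 2.4 reads in A549 and 6.86 in B2B for pol II and 3.63 and 15.6 for H3K4me3, and its part in the differences was not tested. Pol II shares at members did not differ from those at regions acetylated in one line beyond their intervals (-0.480 points, CI -3.22 to 2.26, in A549 and -0.977 points, CI -4.55 to 2.59, in B2B).

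CTCF and Rad21, profiled here in B2B, marked many members. CTCF overlapped 1122, or 61.6% (CI 59.3 to 63.8, all distal regions 19.7%), and Rad21 overlapped 807, or 44.3% (CI 42.0 to 46.6, all distal regions 11.9%). Both were present at 555 members, CTCF without Rad21 at 567, Rad21 without CTCF at 252 and neither at 448. Rad21 was more frequent at members than at B2B-only regions, of which 27.1% had it (17.2 points, CI 13.8 to 20.5, and 9.51 points in 1 kb windows), while CTCF, at 58.2% of B2B-only regions, did not differ beyond the interval (3.37 points, CI -0.132 to 6.88, and -3.40 points in 1 kb windows).

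CTCF peaks at members had a median percentile of 33.9 within the CTCF list, and ranks below the middle were not particular to members. The median was 38.2 at B2B-only regions, 39.3 at regions acetylated in both lines without Med1 and 45.0 at A549-only regions. Most CTCF peaks lacked the CTCF core motif, at members and elsewhere, and it was rarer at members. The core was found within 50 bp of the CTCF summit at 49 of 1122 members, or 4.37% (CI 3.32 to 5.73), compared with 10.3% of the other CTCF peaks on these chromosomes (-5.98 points, CI -7.06 to -4.59), and the AP-1 motif was found there at 15.2%, compared with 5.45% (9.79 points, CI 7.80 to 12). Rad21 accompanied CTCF at 91.8% of the 49 members with the core and 47.5% of the 1073 without it, whereas B2B Jun was present at 32.7% and 69.8% (-37.2 points, CI -48.9 to -22.9). CTCF peaks were most frequent where all 3 Jun proteins were present in both lines, at 92.7% against 41.8% of members with none (50.9 points, CI 44.1 to 56.0), and Rad21 ran the other way, at 32.7% against 52.4% (-19.7 points, CI -27.8 to -10.8). The GSN member, in an intron of the gene for the actin-severing protein gelsolin, had CTCF at 34.6 and Rad21 at 28.4, and the DNAJB12 member, beside a co-chaperone gene, had 32.2 and 22.0. Another of the members with the strongest CTCF and Rad21, in an exon of the retinal transporter gene ABCA4, had CTCF at 31.5 and Rad21 at 16.1 and no Jun-family peak.

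Summits placed the proteins within the members. Where both lines had Jun, its summits lay a median of 18.5 bp apart, and 84.5% of 804 pairs were within 50 bp (CI 81.8 to 86.8). JunB summits of the lines lay a median of 21.0 bp apart and JunD summits 21.5 bp. Med1 summits of the lines were looser, at a median of 68.0 bp, with 38.6% of 751 pairs within 50 bp. Within a line, the H3K27ac summit stood off from the Jun summit by a median of 252 bp in A549 and 272 bp in B2B, and 3.26% and 2.06% of pairs were within 50 bp. The Jun summit lay inside the merged acetylated region at 58.2% of members with Jun in A549 and 53.6% in B2B, and beside it at the rest, as for the windows beside PI4KB, NRP1, PRSS23, CUX1 and DAGLB whose sequences are printed. In the reverse direction, AP-1 motifs were found within 100 bp of 56.9% of A549 Jun summits but of 5.10% of A549 H3K27ac summits at members. The B2B Jun and CTCF summits lay a median of 71.0 bp apart at the 765 members with both.

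**Figure D5:**
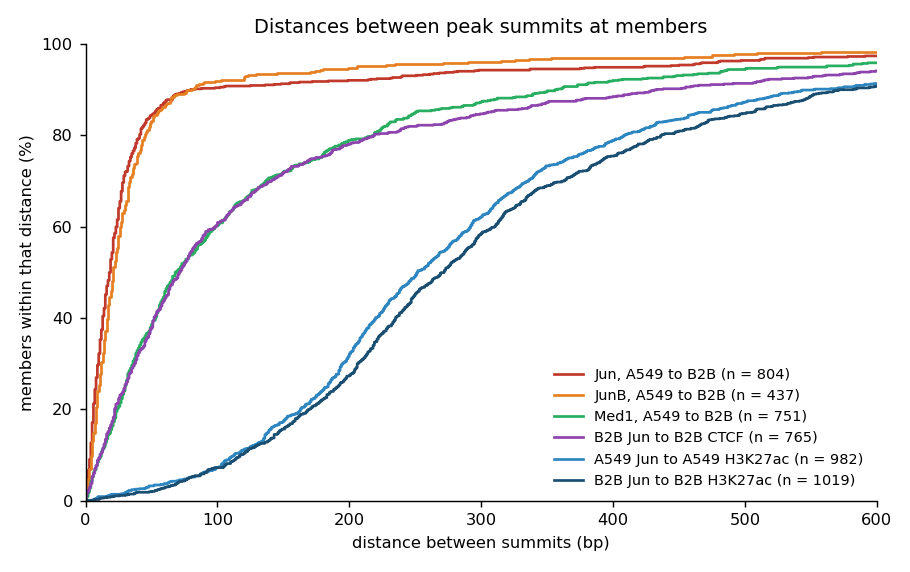
Cumulative percentage of members by the distance in bp between the strongest summits of 2 lists. Jun and JunB summits of both lines lay within 50 bp of each other at 84.5% and 83.1% of members, whereas the H3K27ac summit lay a median of 252 bp from the Jun summit in A549 and 272 bp in B2B.

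The members were assigned to 1070 protein-coding genes by the nearest start, which names a neighbour and not a target. Of these genes, 710 had 1 member and 46 had 5 or more. MYC, the growth-promoting transcription factor gene on chromosome 8, had the most, with 18 members spread over 377 kb, from 61.8 to 438 kb downstream of its start, most of them nearest to starts of the noncoding gene PVT1. At these 18, Jun-family peaks were present at 11 in A549 and 12 in B2B, JunB at 11 and 7, and 5 had none in either line. Their H3K27ac had a median percentile of 58.2 in A549 and 81.7 in B2B but a median pileup of 66.5 reads in A549 and 47 in B2B, so the order of the lines differs between the scales. The member at 127809806 to 127810268 on chromosome 8 had H3K27ac pileups of 152 reads in A549 and 202 in B2B, with JunB and Jun in both lines. That at 128176050 to 128177444 had 71 and 31 reads of H3K27ac, with Med1 and all 3 Jun proteins in both lines and CTCF at a fold enrichment of 47.2 in B2B.

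KLF14, a zinc finger gene, had 16 members in 31.5 kb, all between 152 and 183 kb from its start and nearest to starts of the noncoding genes LINC-PINT and LINC00513. All 16 had Med1 and pol II in A549, but 5 had Med1 and 5 had pol II in B2B, and 7 and 5 had a Jun-family peak. AMOTL2, which encodes an angiomotin that binds YAP, was the reverse in Med1. Of its 13 members, all had Med1 in B2B and 3 in A549, and the median H3K27ac pileup was 78 reads in B2B and 20 in A549, while 10 had pol II in each line and 4 had a Jun-family peak in each. ZMIZ1, a gene for a coregulator of transcription factors, had 12 members over 336 kb, with JunB at 8 in A549 and 5 in B2B. ERGIC1, which encodes a protein of the compartment between endoplasmic reticulum and Golgi, had 11 members within the gene, with JunB at 7 in A549 and 1 in B2B and Jun at 6 and 7. These counts describe single loci, and neighbouring members can share peaks.

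Pathway lists were counted by the same assignment, as a description beside all distal acetylated regions. Genes of EGF receptor and MAP kinase signalling had 35 members, 1.92% of members where the list held 0.897% of all distal regions, among them 9 each beside the MAP kinase phosphatase genes DUSP1 and DUSP5 and 5 beside EGFR. The DUSP5 member 86527 bp upstream had H3K27ac at percentiles 82.4 in A549 and 99.2 in B2B, and 64 and 60 reads of JunB, with Jun in both lines too. The DUSP1 member, in an exon of that gene 1950 bp downstream of a start, had 139 reads of Med1 in A549 and 129 in B2B, and Jun in A549 only. YAP-TEAD pathway genes had 31 members (1.70% against 0.844%), of which 13 were beside AMOTL2, and 1 beside TEAD1 had all 3 Jun proteins in both lines, with 74 reads of Jun in A549 and 81 in B2B. These shares lean on few genes.

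Epithelial and lung transcription regulators had 49 members (2.69% against 1.64%), 18 of them beside MYC and 6 each beside BHLHE40 and RXRA. The longest member, 14523 bp in an intron of the retinoid receptor gene RXRA, had 337 reads of H3K27ac in A549 and 197 in B2B, 101 and 76 of Med1, and JunB in A549 as its only Jun-family peak. The member beside HES1, a repressor gene of the Notch pathway, had the highest A549 fold enrichment of H3K27ac among members, 140, though its H3K27ac pileups were close, 319 reads in A549 and 310 in B2B, and it had 42 and 110 reads of Med1. The BHLHE40 member had 170 reads of Med1 in A549 and 133 in B2B, with JunB in A549 and no JunB peak in B2B. Keratin, junction and cytoskeleton genes had 39 members (2.14% against 1.28%). The KRT80 member, 7407 bp long and nearest to that keratin gene, had 156 reads of JunB in A549 and 148 in B2B and 193 and 185 of Jun, over local backgrounds of 2.37 and 39.8 reads for JunB and 2.35 and 19.9 for Jun.

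The remaining lists are given with their shares in the same way. AP-1 subunit genes had 7 members, 3 beside ATF3, 3 beside FOSL1 and 1 beside FOSL2, or 0.384% against 0.230%. The FOSL1 member 2157 bp upstream had 97 reads of Jun in A549 and 89 in B2B, and JunB in A549 only. TGF-beta pathway genes had 15 members (0.823% against 0.710%), matrix, integrin and laminin genes 12 (0.659% against 0.681%), NF-kB and cytokine genes 8 (0.439% against 0.355%), and NRF2 target genes 11 (0.604% against 0.959%). The oncogene list that the study drew up had 139 members beside 70 genes (7.63% against 6.09%). Beside HMGA1, an architectural chromatin protein gene of that list, JunB and JunD had peaks in A549 with neither in B2B, and Jun had 130 reads in A549 and 119 in B2B, over local backgrounds of 0.996 and 25.1 reads.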

How the data were processed

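ChIP-seq peak lists of A549 and B2B were analysed, 16 in all, covering 36 samples in 18 groups, 4 of them input. According to the methods of the study and the processing notes, the authors aligned reads to hg38 with Bowtie2 2.4.4, removed duplicates, merged biological replicates, normalised them by CPM (SAMtools 1.13) and then used MACS2 2.2.7.1 to find peaks. The control given to the caller is not given in the sources used here. The fold enrichment of each peak is a ratio deposited by the authors, and its significance was deposited as −log10 of a p-value and a q-value. The lists hold no counts, but pileup and background were solved from the fold enrichment and the p-value, with a tolerance of 0.001. Replicates were merged, so no replicate error exists.

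Transcript starts, genes and exons were taken from GENCODE release 44 and sequence from hg38. Regions were merged and overlapped (at least 1 bp) in Python 3.11.15 with NumPy 2.4.6 and pandas 2.3.3. Shares have Wilson 95% intervals, differences Newcombe intervals, paired where both lines were scored on the same members, with SciPy 1.17.1. The functions were tested on simulated data and against bedtools 2.31.1. Plots were drawn with Matplotlib 3.10.9. The members and gene lists were chosen with earlier results of these data known. Named members were the 10 with the highest lowest percentile over the 6 Jun-family lists, the 5 highest for each line alone, the 5 most acetylated with no Jun-family peak, the 4 highest for CTCF and Rad21, the 3 longest, the 3 most acetylated of each gene list and the 5 genes with most members. Some members that the rule names are not reported here. Alternatives changed thresholds, distances, windows and list lengths.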

Additional observations from a re-analysis of the deposited data

How the results depend on the processing

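Over 15 results, 64 alternatives were run, of which 51 kept the reading. That means an interval that stayed on its side of 0, one that still included 0, or a count within 1.5 times. A difference whose interval included 0 could change sign and still be counted so. The Jun difference between the lines, -2.03 points, became 1.04 with lists of equal length and 1.37 with the summit inside the region. The CTCF difference from regions acetylated in B2B only, 3.37 points, became -3.40 in 1 kb windows. The number of members went from 1822 to 1196 with 50% reciprocal overlap of the peaks and to 751 with Med1 required in both lines. The difference in Jun between the lines at members, -2.03 points, was 8.66 with Med1 in both lines and -13.7 without H3K4me3, and that in JunD was 1.46 without H3K4me3. Leaving out members with H3K4me3, and merging peaks before the distance filter, were alternatives chosen after seeing the data. Against regions acetylated in A549 only, the difference was 1.79 for JunB, 1.58 for Jun and 1.93 for JunD when those regions had Med1 in A549, and 3.01 for Jun and -1.14 for JunD in 1 kb windows. Against regions acetylated in B2B only, it was -0.602 for JunB and 1.15 for JunD in 1 kb windows, and 3.64 for CTCF with −log10 q of at least 5. The 1 kb windows were longer than the median member, 748 bp, and than the median region acetylated in A549 only, 370 bp, or in B2B only, 376 bp. The cause of these changes was not tested. The AP-1 motif difference kept its side of 0 in the alternatives run, from 4.52 to 7.15 points. No paired analysis was possible because the authors merged the replicates before peak calling, and for the same reason no replicate could be left out.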

Other observations

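Chromosome 1 held 337 members, or 1.35 per Mb, and chromosome 10 held 179, or 1.34 per Mb, while chromosome 4 held 45, or 0.237 per Mb. Distal acetylated regions differ in number between chromosomes too, and members made up 10.6% of those on chromosome 1, 9.66% on chromosome 10 and 4.75% on chromosome 4. Of the members, 777 lay within 12.5 kb of another, or 42.6%, close to the 40.9% and 42.3% of regions with Med1 acetylated in A549 only and in B2B only. Joined over gaps of that size, members formed 23 runs of 5 or more. The longest run held 16 members beside KLF14, followed by 11 in ERGIC1, 8 beside DUSP5 and 8 in and beside AMOTL2. Runs of 6 lay beside LUZP1 and HTR1D, MYOF, a membrane repair gene, PXN, which encodes the adhesion protein paxillin, and LOXL2, a lysyl oxidase gene of the matrix.

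In B2B the median H3K27ac percentile of members was 44.8 with no Jun-family protein called in that line, 74.2 with 1, 84.2 with 2 and 84.4 with 3. In A549 the median percentile was 56.1 with none, 63.3 with 1, 60.9 with 2 and 70.5 with 3. The H3K27ac pileup did not follow the percentile in B2B, with medians of 76 reads with none, 62 with 1, 65 with 2 and 50 with 3, over median local backgrounds of 13.4, 6.91, 5.99 and 4.61 reads. In A549 the median pileups were 48, 67, 57 and 112 reads. Acetylation chose the members, so these values are a description.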
